A study of Drosophila melanogaster with 6 samples.

Results

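The structural cuticle proteins described here are 93 genes of the fruit fly Drosophila melanogaster, out of 10844 genes that the array measured with a probe set of their own. They were taken by name. A gene was included where the platform annotation of a probe set names it alone and its current symbol starts with Cpr, Ccp84A, Lcp, Twdl, Edg or Acp65A, or is resilin or Pcp. The 93 genes have 99 probe sets, and for the 6 genes with more than 1 probe set the one with the highest mean log2 intensity over the 6 arrays was used. The genes comprise 58 of the Cpr family, 20 Tweedle genes, 5 Lcp genes, 4 Ccp84A genes, 3 Edg genes, Acp65Aa, Pcp and resilin. RefSeq lists 123 cuticle protein genes under these names. Of these, 30 had no probe set of their own and were not analysed here, among them Lcp1 to Lcp4. Cpr, the gene of NADPH-cytochrome P450 reductase, shares the prefix without being a cuticle protein, and 0 of the members were Cpr.

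The study compared oviducts of unmated females with oviducts of mated females on Affymetrix DrosGenome1 arrays, with 3 arrays a group. All females were 3 days old. The mated females were dissected 3 h after mating and the unmated females at parallel times, from flies kept in a light and dark cycle. Tracts of 400 to 500 females were pooled, whether for each array or for each group is not given, and the strain is not given in the sources used here. According to the design, the 3 arrays are biological repeats. If they share a pool, the p-values measure only the spread between arrays of that pool.

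Insect cuticle is a layered material of chitin fibres and structural proteins, secreted by the epithelium beneath it. Most of its proteins belong to the Cpr family, which carries the Rebers and Riddiford consensus, a stretch that binds chitin. The Lcp proteins (larval cuticle), Pcp (pupal cuticle, a gene nested in an intron of Gart), Acp65Aa (adult cuticle), the Ccp84A cluster and Edg78E and Edg84A carry the same kind of stretch under older names, while the Tweedle proteins form a separate family in which mutant alleles of TwdlD alter body shape. Resilin is a rubber-like protein of elastic cuticle. The oviduct belongs to this material because its epithelium derives from the genital disc, an ectodermal tissue, and is lined by a thin cuticular intima.

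Each probe set has 1 intensity on each array, on a linear scale. No detection calls were used here. A gene was therefore counted as present where its probe set lay above the median, percentile 50, of all 13966 probe sets other than controls on each of the 6 arrays. A percentile of this kind places a probe set by brightness on its own array. It does not compare the amounts of different transcripts, because probe sets differ in how strongly they bind. Nor does passing the threshold show that a gene is expressed. SP, a male accessory gland marker, passed it on all 6 arrays, those of unmated females included.

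The arrays did not divide cleanly by mating. The median intensity of all probe sets was 86.2, 86 and 62.4 on the 3 unmated arrays and 66.45, 66.1 and 60.6 on the 3 mated arrays, so unmated arrays 1 and 2 stood above the other 4. The mean intensity of the 18S ribosomal RNA control probe sets was 1005 and 806 on those 2 arrays and between 169 and 464 on the other 4. Its part in the results was not tested. Correlations between arrays were taken over the log2 intensities of probe sets with a mean log2 above the median. The highest between any 2 arrays, 0.95, joined unmated array 3 with mated array 1. The summed intensity of 18 measured ovary and eggshell markers was 13822, 13647 and 3455 on the unmated arrays and between 2007 and 5647 on the mated arrays. The sum of 13 midgut markers was 4025, 5020 and 1081 on the unmated arrays and between 589 and 1339 on the mated arrays. Muscle markers, a sign of the contractile sheath of the oviduct, were present for 8 of 8 measured. None of the markers was listed at 0.

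Of the 93 cuticle protein genes, 18 (19.4%) were present in the oviduct, against 42.0% of all 10844 genes. A further 29 lay above the median on 1 to 5 of the arrays, and 46 lay above it on none. The 18 comprised 10 of 58 Cpr genes, 4 of 20 Tweedle genes, 2 of 4 Ccp84A genes, 1 of 5 Lcp genes and 1 of 3 Edg genes, and included neither Acp65Aa, Pcp nor resilin. At the other end, 8 of the 93 members lay below the lower quartile on all 6 arrays, as did 1019 of all 10844 genes. TwdlQ was just inside the threshold, at percentile 50.1 on its lowest array, whereas Cpr62Bc and Twdlbeta were just outside it, at 48.8 and 47.8. With percentile 75 as the threshold, 5 members counted as present.

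**Figure D1:**
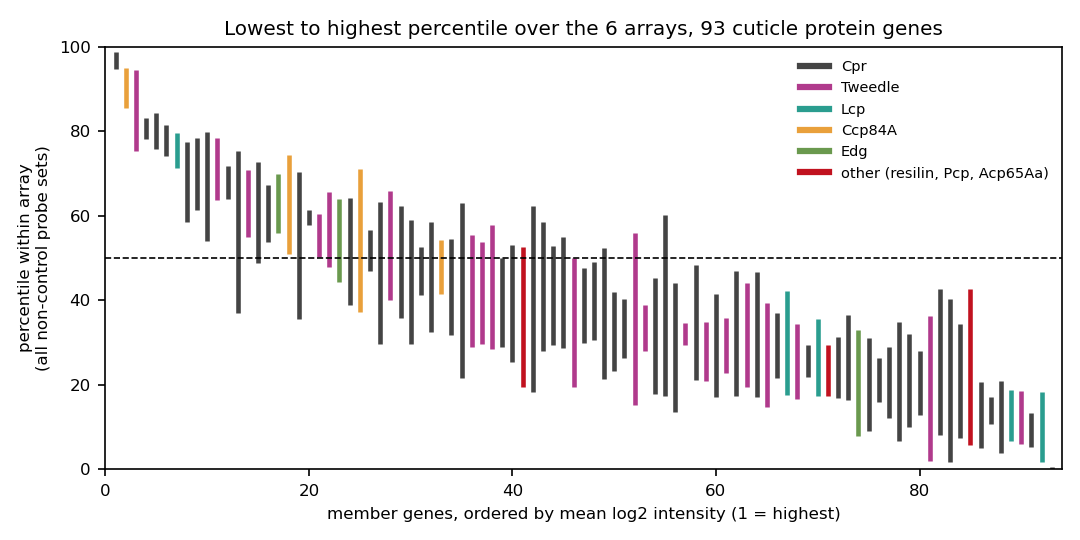
Percentile of each of the 93 cuticle protein genes among all probe sets of an array, as a line from the lowest to the highest of the 6 arrays; genes are ordered by mean log2 intensity along the x axis, colours mark the families, and the dashed line marks percentile 50. The whole range lies above the line for 18 genes, and Cpr67B, from 94.8 to 98.8, is the highest.

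The brightest member was Cpr67B, a Cpr family gene outside the large clusters. It read 1655.9, 1441.2 and 5656.8 on the 3 unmated arrays and 5237, 6475.6 and 2395.7 on the 3 mated arrays. The groups overlapped: unmated arrays 1 and 2 were the lowest, and unmated array 3 exceeded 2 of the mated arrays. The mean was 2918 ± 2374 (SD, n = 3) in unmated and 4703 ± 2092 (n = 3) in mated females, a log2 difference, mated minus unmated, of 0.86 (SE 0.64, 95% interval -0.64 to 2.37, limma adjusted p = 0.851). Without unmated arrays 1 and 2 the log2 difference was -0.39.

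Next in brightness were Ccp84Ae, of the cuticle cluster at cytological region 84A, and TwdlM, of the Tweedle cluster. Ccp84Ae read 1485.4, 784.7 and 976.2 in unmated and 650.9, 812.7 and 502.6 in mated females. Its 3 mated values were below the middle unmated one but overlapped them (log2 difference -0.70, SE 0.38, 95% interval -1.60 to 0.20, limma adjusted p = 0.799). TwdlM read 1339.9, 998.1 and 952.3 in unmated and 530.9, 927.8 and 241.7 in mated females. All 3 mated arrays of TwdlM lay below all 3 unmated arrays, though mated array 2 missed the lowest unmated array only narrowly. The mean of TwdlM was 1097 ± 212 (SD, n = 3) in unmated and 567 ± 344 (n = 3) in mated females (log2 difference -1.14, SE 0.52, limma adjusted p = 0.762). A second TwdlM probe set was far dimmer, at 31.7, 30.5 and 14.1 in unmated and 30.1, 18.9 and 18 in mated females. That probe set gave overlapping groups and a log2 difference of -0.14 (SE 0.44), in a range that cannot be told from background here.

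The 4 genes of the Cpr64A cluster, Cpr64Aa to Cpr64Ad, are neighbours and were the one run of the 15 runs described further on with each of its genes measured and present. RefSeq places the 4 within the span of another gene, CG43367. Cpr64Ad read 317.6, 425.5 and 325.5 in unmated and 371, 389 and 295.5 in mated females. It was among the steadiest members, with a ratio of 1.44 between its highest and lowest array and a log2 difference of -0.01 (SE 0.32, 95% interval -0.77 to 0.74). Cpr64Aa read 454.6, 388.4 and 293.7 in unmated and 296.3, 284.3 and 250.1 in mated females, and mated array 1 exceeded unmated array 3 by a small margin (log2 difference -0.43, SE 0.32, limma adjusted p = 0.855). Cpr64Ab read 245.6, 124.7 and 207.3 in unmated and 276.8, 166.9 and 229.4 in mated females, with overlapping groups and a log2 difference of 0.25 (SE 0.40). Cpr64Ac varied most within a group, at 344.5, 103.5 and 287.5 in unmated and 137.7, 198 and 116.9 in mated females. Its log2 difference was -0.56 (SE 0.52), with unmated array 2 the lowest of the 6. The 4 neighbours thus shared presence but not a common order of the arrays.

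The other Cpr genes present were Cpr92A, Cpr78E, Cpr97Ea, Cpr72Eb and Cpr47Ed. Cpr92A read 373.9, 337.1 and 287.5 in unmated and 362.1, 326.4 and 224.5 in mated females (log2 difference -0.15, SE 0.34). Cpr97Ea read 202.3, 164.7 and 145.8 in unmated and 197.3, 176.6 and 127.8 in mated females (log2 difference -0.04). Both had nearly coinciding groups. Cpr78E read 209.7, 150.3 and 276.2 in unmated and 229.2, 172.6 and 111.4 in mated females (log2 difference -0.33). Cpr72Eb read 180.8, 173.4 and 103.7 in unmated and 154.1, 146.7 and 75 in mated females (log2 difference -0.31). In these 2 genes mated array 3 was the lowest array, and the groups overlapped. Cpr47Ed, the one present gene of the 7 Cpr47E genes, stayed between 91.2 and 134.1 on all arrays (log2 difference -0.17).

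Members with stage names were present as well. Lcp65Aa, a gene of the larval cuticle cluster at 65A, read 335.8, 302 and 200.4 in unmated and 309.8, 190.2 and 239.3 in mated females (log2 difference -0.18, SE 0.37). The other 3 measured Lcp65A genes, Lcp65Ac, Lcp65Ad and Lcp65Af, lay above the array median on none of the arrays, nor was Acp65Aa, the adult cuticle gene that lies beside Lcp65Aa. Edg84A, an ecdysone-dependent gene at the edge of the Ccp84A cluster, read 111.6, 139.1 and 145.6 in unmated and 177.6, 138.8 and 98.1 in mated females (log2 difference 0.03). Ccp84Ad read 114.7, 257.5 and 102.7 in unmated and 191.8, 72.8 and 64.1 in mated females (log2 difference -0.59, SE 0.57). Its groups overlapped, and its probe set is of the type that Affymetrix marks as matching a sequence family, so signal of related genes cannot be told apart there.

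Beside TwdlM, 3 Tweedle genes were present. TwdlD read 317.2, 168.2 and 123.3 in unmated and 195.7, 128.8 and 185.8 in mated females, with overlapping groups (log2 difference -0.16, SE 0.44). TwdlJ read 200, 191.1 and 175.9 in unmated and 175.5, 88.1 and 79.4 in mated females. The 3 mated arrays of TwdlJ lay below the unmated ones, but mated array 1 did so by less than 1 unit of intensity (log2 difference -0.82, SE 0.40, limma adjusted p = 0.777). A second TwdlJ probe set was dim, at 54.3, 47.8 and 4.1 in unmated and 5, 34.3 and 11.9 in mated females, with overlapping groups. TwdlQ read 117.6, 134.7 and 64.7 in unmated and 66.8, 86 and 82.5 in mated females, with overlapping groups (log2 difference -0.37).

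**Figure D2:**
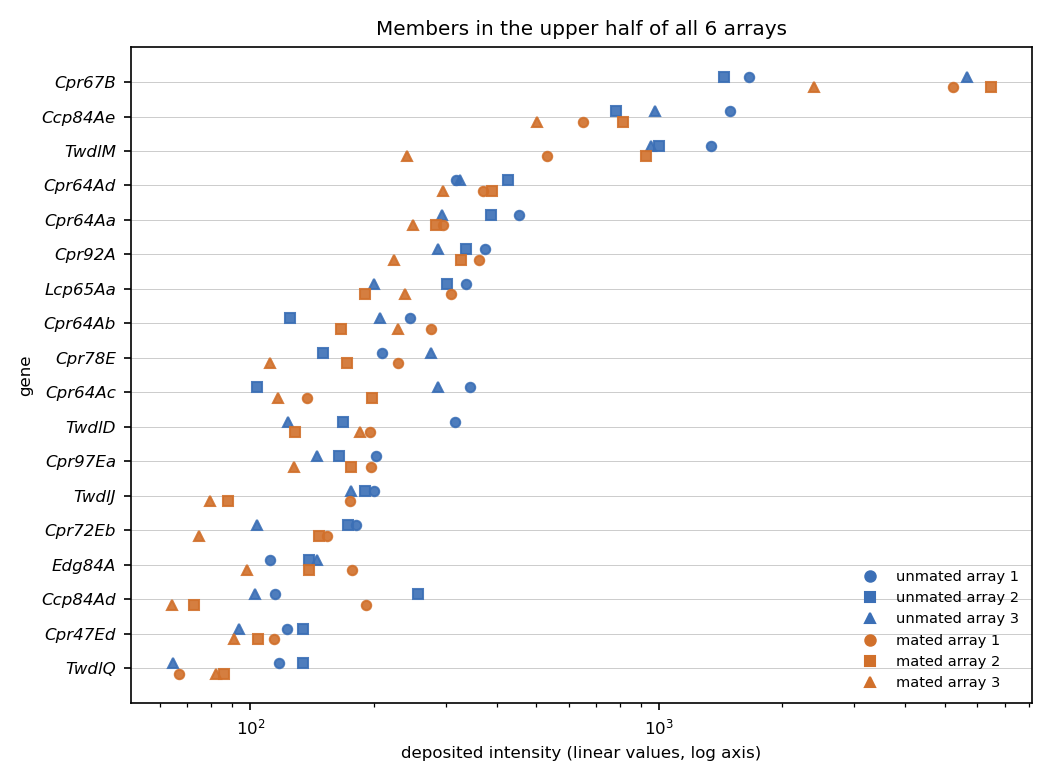
Deposited intensity (log axis) of the 18 present cuticle protein genes on each of the 6 arrays, with unmated and mated arrays in different colours. Cpr67B spans 1441.2 to 6475.6, and only TwdlM and TwdlJ have all 3 mated points below all 3 unmated points.

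Genes of known stage or mechanical role outside the present set were dim. Resilin read 16.3, 58.5 and 54.2 in unmated and 75.3, 63.7 and 35.5 in mated females, and passed the array median on 1 array. Its mean was 43 ± 23.2 (SD, n = 3) in unmated and 58.2 ± 20.5 (n = 3) in mated females, a log2 difference of 0.57 (SE 0.59, 95% interval -0.81 to 1.95, limma adjusted p = 0.918). Pcp read 16.5, 60.7 and 3.9 in unmated and 7.6, 4.8 and 4.8 in mated females. The value on unmated array 2 stood far above the other 5. Acp65Aa stayed between 9.9 and 30.1, and the dimmest member, Cpr67Fa2, between 0.6 and 2.1. Without detection calls these values cannot be separated from background.

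Many cuticle protein genes lie side by side in the genome. Taking as a run 3 or more such genes with at most 1 other gene between neighbours, RefSeq held 15 runs of 83 genes, of which 57 were measured. In these runs 13 of 57 measured genes were present, and outside them 5 of 36. Presence differed between runs. It was 4 of 4 measured genes in the Cpr64A run, 3 of 5 in the run from Edg84A to Ccp84Aa, 3 of 10 in the Tweedle run from TwdlM to TwdlD, 1 of 7 in the Cpr47E run, 1 of 3 in the Cpr72E run and 1 of 6 in the run of 18 genes from Lcp65Ag3 to Cpr65Az. It was 0 of the measured genes in the Cpr62B, Cpr65E, Cpr67F, Cpr76B and Cpr78C runs. The same held for the runs from Cpr49Ae to Cpr49Ag, from TwdlF to TwdlV and from TwdlX to Twdlalpha. The run from Lcp1 to Lcp4 had no measured gene. Of the genes without a probe set of their own, 10 share a probe set with another gene. None of the 7 shared probe sets lay above the median on all 6 arrays, and the one for Ccp84Aa and Ccp84Ab stayed between 0.6 and 2.4.

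**Figure D3:**
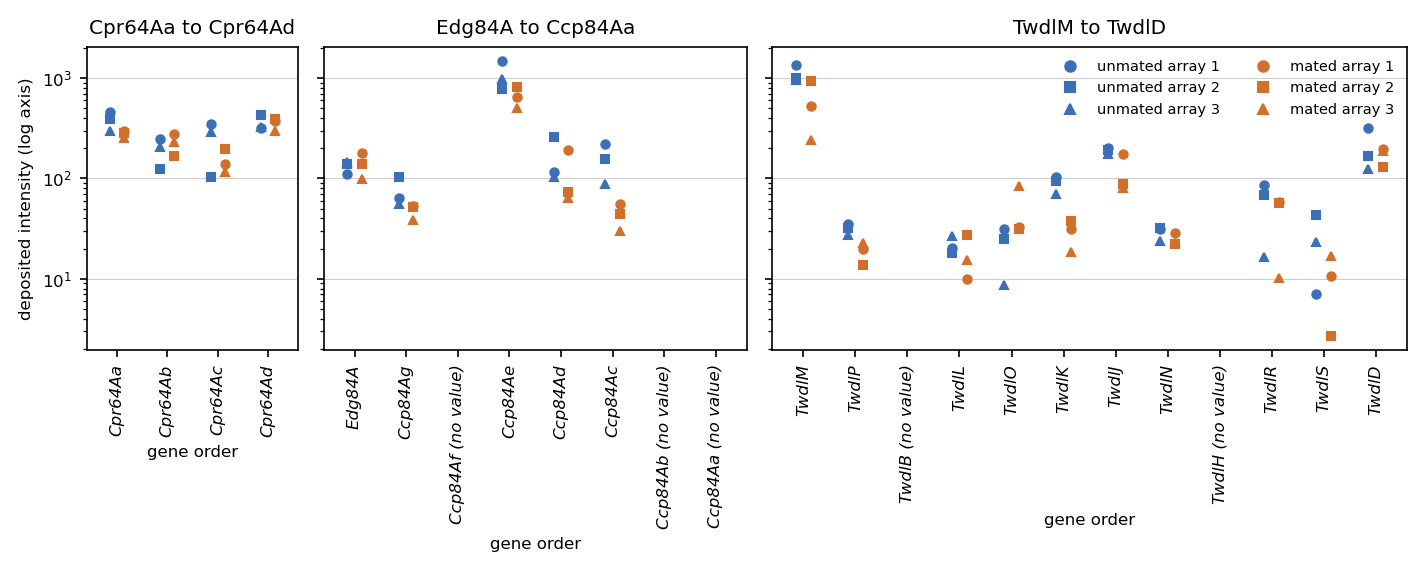
Deposited intensity (log axis) of the genes in 3 runs of neighbouring cuticle protein genes, in genome order along the x axis, with 1 point for each array and unmated and mated arrays in different colours; genes without a probe set of their own carry no value. All 4 Cpr64A genes were present, against 3 of the 10 measured genes in the run from TwdlM to TwdlD.

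The comparison of mated with unmated females asks whether mating alters these genes in the oviduct. No cuticle protein gene passed an adjusted p of 0.05 in limma, in either direction, and the same held for all 10844 genes (0% called). The lowest adjusted p of a member was 0.627, for TwdlK. At an unadjusted p under 0.05, 7 members were lower in mated females (7.53%, against 5.25% of all genes) and 2 were higher (2.15%, against 0.987%). In 16 members the 3 mated values lay below the 3 unmated values (17.2%, against 8.43% of all genes), and in 2 they lay above (2.15%, against 2.45%). For such a gene the exact two-sided permutation test gives p = 0.1, the smallest that 3 arrays against 3 allow. Most members were dim, and these shares differed with brightness. Of the 75 members not present, 9.33% were lower at an unadjusted limma p under 0.05, against 8.31% of all genes not present. Lower without overlap were 18.7% of these members, against 10.7% of those genes. Since the RNA came from whole tissue, fewer cells of a type and less RNA per cell cannot be told apart.

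Differences leaned downwards both among the members and among all genes. The log2 difference was below 0 for 68 of 93 members (73.1%), against 62.2% of all genes. Its median was -0.31 over the members and -0.16 over all genes. The lean depended on how the arrays were scaled: after quantile normalization 50 of 93 members were below 0, against 50.3% of all genes, and after centring each array on its median 52 were, against 41.2%. Among the 18 present members 15 were below 0, against 52.6% of the 4552 present genes, with a median of -0.24 against -0.02. After quantile normalization 12 of the 18 were below 0, against 50.3% of all genes, and after median centring 9 were, against 41.2%. The shares of present genes in those settings are not given here. Centring moves the difference of every gene by the same amount. It therefore leaves the gap between the medians of present members and present genes unchanged. Of these 18, TwdlM and TwdlJ had all mated arrays below all unmated arrays, against 5.27% of present genes, and 0 had them above, against 2.97%. The probe sets used for TwdlM and TwdlJ carry the Affymetrix suffixes i and r, which also mark limits of probe design. Among the 75 other members the median was -0.32, close to the -0.34 of all genes that were not present. Below 0 were 70.7% of these members, against 69.1% of those genes.

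These medians followed particular arrays. With the 6-array mean of each gene set to 0, the median log2 level of the 18 present members was 0.34, 0.17 and -0.12 on the unmated arrays and 0.21, -0.03 and -0.43 on the mated arrays. For all present genes the same medians stayed between -0.03 and 0.05. Mated array 3 was the lowest array for 12 of the 18 present members and for 36 of all 93, and unmated array 1 was the highest for 10 of the 18. Without mated array 3 the median difference of the present members was -0.13, and without unmated arrays 1 and 2 it was -0.02. The corresponding medians over all 93 members were -0.18 and -0.12, the latter against 0.01 for all genes. Quantile normalization brought the median over the 93 members to -0.03, against 0.00 for all genes.

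**Figure D4:**
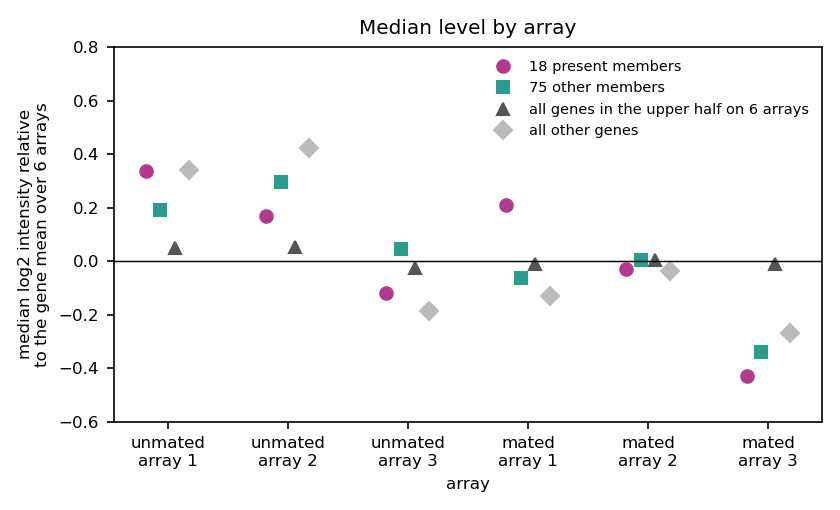
Median log2 intensity on each array, with the 6-array mean of each gene set to 0, for present members, other members, all present genes and all other genes. Present members range from 0.34 on unmated array 1 to -0.43 on mated array 3, while all present genes stay between -0.03 and 0.05.

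The members with the smallest unadjusted p-values were TwdlK, of the Tweedle cluster, and Ccp84Ac, of the Ccp84A cluster. TwdlK read 102.6, 93.6 and 69.7 in unmated and 31.3, 37.6 and 18.7 in mated females, with a wide gap between the groups. Its mean was 88.6 ± 17.0 (SD, n = 3) in unmated and 29.2 ± 9.62 (n = 3) in mated females, a log2 difference of -1.64 (SE 0.39, limma unadjusted p = 0.00365, adjusted p = 0.627). Ccp84Ac read 219, 155.9 and 88.9 in unmated and 56.2, 44.1 and 29.8 in mated females, again without overlap. Its mean was 155 ± 65.1 (SD, n = 3) in unmated and 43.4 ± 13.2 (n = 3) in mated females, a log2 difference of -1.79 (SE 0.45, limma unadjusted p = 0.00521, adjusted p = 0.638). Both genes lay above the array median on the 3 unmated arrays and below it on the 3 mated arrays. With unmated array 3 as the one unmated array, the log2 difference was -1.31 for TwdlK and -1.08 for Ccp84Ac.

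In the Tweedle run from TwdlM to TwdlD, 9 of 10 measured genes had a log2 difference below 0, against 62.2% of all genes, with a median of -0.64. In 4 genes (TwdlM, TwdlP, TwdlK and TwdlJ) the groups did not overlap, against 8.43% of all genes lower without overlap. The other probe sets of TwdlM and TwdlJ were dim, and their groups overlapped. After quantile normalization 8 of the 10 genes were below 0, with a median of -0.33. Without unmated arrays 1 and 2, 6 were, with a median of -0.64. TwdlP was dim, at 35.5, 32.1 and 27.2 in unmated and 19.8, 13.8 and 22.8 in mated females (log2 difference -0.77, SE 0.34). The exception was TwdlO, at 31.2, 24.8 and 8.6 in unmated and 33.1, 31.2 and 84.2 in mated females, where mated array 3 stood alone above the others. In the run from Edg84A to Ccp84Aa, 4 of 5 measured genes were below 0, with a median of -0.61. Ccp84Ag, the neighbour of Edg84A, read 64.3, 103.9 and 56 in unmated and 53, 52.1 and 38.3 in mated females (log2 difference -0.61, SE 0.37). Its groups were separated by 3 units of intensity. Over all 20 Tweedle genes 17 differences were below 0, with a median of -0.45, and after quantile normalization 14 were, with a median of -0.17. Without unmated arrays 1 and 2, 10 of the 20 were below 0, with a median of -0.12. Over the 58 Cpr genes 40 were below 0, with a median of -0.29, but after quantile normalization 29 were, with a median of 0.00367. The 4 Ccp84A genes were below 0 in both settings (medians -0.65 and -0.57), after median centring and cyclic loess, and without unmated arrays 1 and 2.

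Of the other members without overlap, 3 lay above the median on all 3 unmated arrays. Cpr62Bc read 236.1, 224.4 and 155.8 in unmated and 82.1, 150.5 and 57.3 in mated females (log2 difference -1.18, SE 0.44, limma unadjusted p = 0.0313, adjusted p = 0.745). Cpr12A read 197.1, 146.6 and 172.6 in unmated and 129.1, 31.6 and 95.2 in mated females (log2 difference -1.23, SE 0.55). Cpr31A read 268.3, 196.1 and 212.6 in unmated and 183.7, 34.4 and 162.8 in mated females (log2 difference -1.15, SE 0.66). In Cpr12A and Cpr31A mated array 2 was far below the rest, while in Cpr62Bc it was the mated array nearest to the unmated ones. Cpr50Ca had tight groups, at 79.8, 91.6 and 71.3 in unmated and 47.4, 42.9 and 50.3 in mated females (log2 difference -0.78, SE 0.30, limma unadjusted p = 0.0357). The dimmest of these members did not exceed an intensity of 52.8 on any array. Among them were Cpr49Ac (log2 difference -1.17), Cpr49Af (-1.17), Cpr65Ec (-1.01), Cpr65Eb (-1.31), Cpr76Bb (-0.66) and TwdlV (-0.97). Cpr65Eb, for example, read 12.1, 19.4 and 9.3 in unmated and 5.8, 3.9 and 6.3 in mated females, a range in which signal cannot be told from background here.

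The opposite order was seen in TwdlT and Cpr49Ad. TwdlT read 56.6, 35.3 and 19.8 in unmated and 86.9, 74.4 and 68.4 in mated females. Its mean was 37.2 ± 18.5 (SD, n = 3) in unmated and 76.6 ± 9.44 (n = 3) in mated females, a log2 difference of 1.16 (SE 0.44, limma unadjusted p = 0.0338, adjusted p = 0.745). A second TwdlT probe set read 31.7, 34.1 and 6.8 in unmated and 15.8, 17.9 and 9.8 in mated females, with overlapping groups. Its log2 difference was -0.47 (SE 0.67, 95% interval -2.04 to 1.10), in a range that cannot be told from background here. The brighter TwdlT probe set lay above the array median on 3 arrays only, and at percentile 28.9 on its lowest. With the probe sets of TwdlT averaged, the log2 difference was 0.35. Cpr49Ad was dim, at 14.6, 20.3 and 11.7 in unmated and 27.8, 21.7 and 52 in mated females (log2 difference 1.06, SE 0.44, limma unadjusted p = 0.0455, adjusted p = 0.745). Its neighbour Cpr49Ac, at 19.7, 27.9 and 52.8 in unmated and 10.2, 15.4 and 16.3 in mated females, had the reverse order of groups.

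**Figure D5:**
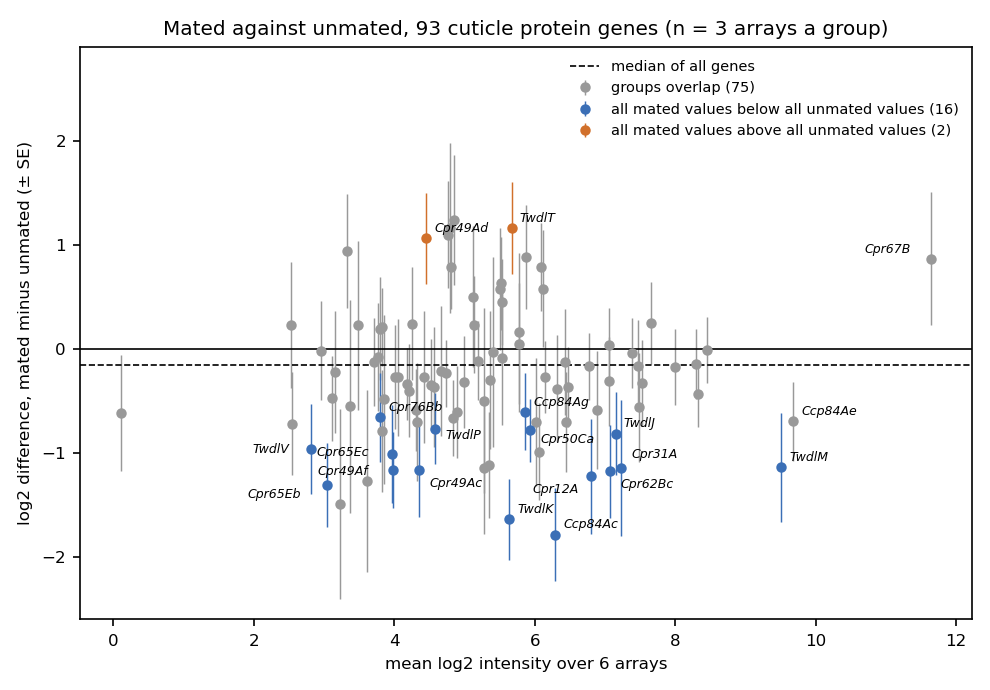
Log2 difference, mated minus unmated (y axis, error bars SE, n = 3 arrays a group), against mean log2 intensity over the 6 arrays (x axis) for the 93 cuticle protein genes; the dashed line is the median of all genes, -0.16. Colours mark the 16 genes with all mated values below all unmated values and the 2 with all mated values above; no gene passed an adjusted p of 0.05.

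Scatter within and between groups was wide for these genes. The ratio of a gene's highest to its lowest array had a median of 3.56 over the 93 members, against 2.85 over all genes, and of 2.32 over the 18 present members, against 1.97 over all present genes. Cpr47Ee, at 7.6, 7 and 37.2 in unmated and 2, 17.8 and 17.5 in mated females, had the largest ratio, 18.6. The smallest ratios among present members were those of Cpr64Ad, 1.44, and Cpr47Ed, 1.47.

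Gene lists for making, modifying and hardening the chitin matrix were set beside the structural proteins. No gene of these lists passed an adjusted p of 0.05. Their counts are read against all genes, of which 42.0% were present, 62.2% had a log2 difference below 0 (median -0.16) and 5.25% were lower with an unadjusted p under 0.05. Among 24 measured genes of chitin synthesis and modification 7 were present and 20 had a log2 difference below 0 (median -0.39, and -0.07 after quantile normalization), 0 with an unadjusted p under 0.05. The 7 present were Idgf2, Idgf3, Idgf4, Idgf6, mmy, Cda4 and Cht11. The chitin synthase genes kkv and Chs2 were not among them. Knk, which organises and protects chitin, read 109.3, 109.4 and 61 in unmated and 44.1, 67.3 and 37.5 in mated females (log2 difference -0.90, SE 0.40, and -0.34 without unmated arrays 1 and 2). Among 17 peritrophin-type chitin-binding proteins 5 were present and 13 were below 0 (median -0.61, -0.14 after quantile normalization and 0.13 without unmated arrays 1 and 2), 2 of them with an unadjusted p under 0.05 and lower. Mur18B, a mucin-related gene, read 1151.5, 360.3 and 223.6 in unmated and 165.3, 144.3 and 135.8 in mated females, where unmated array 1 was far above the rest. Its log2 difference was -1.61 with all arrays and -0.60 without unmated arrays 1 and 2.

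Among 21 measured genes listed for tanning and pigment of cuticle, 8 were present and 13 were below 0 (61.9%, median -0.31, and -0.03 after quantile normalization), 1 of them, Ddc, with an unadjusted p under 0.05 (4.76%). The 8 present were amd, AANATL2, Catsup, Dhpr, speck, yellow-d, yellow-f and yellow-f2, while ple and e lay above the median on none of the arrays. Ddc, dopa decarboxylase, read 127.2, 128.8 and 109.5 in unmated and 63.7, 81.4 and 77.3 in mated females, without overlap (log2 difference -0.72, SE 0.31, limma unadjusted p = 0.0494, adjusted p = 0.752). AANATL2, an N-acetyltransferase of the arylalkylamine type, read 223.3, 521.8 and 723.5 in unmated and 1895.4, 593.3 and 991.9 in mated females, and the groups overlapped (log2 difference 1.24, SE 0.60, and 0.52 without unmated arrays 1 and 2). Among 15 genes of the apical matrix and zona pellucida proteins 6 were present and 11 were below 0 (median -0.50, and -0.25 after quantile normalization), 2 of them with an unadjusted p under 0.05 and lower. The brightest, pio, a zona pellucida domain protein that ties epithelium to matrix, read 5580.7, 6505 and 5204.9 in unmated and 6749.8, 7415.4 and 8444.7 in mated females, all mated values above all unmated ones (log2 difference 0.39, SE 0.31).

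Markers of other tissues that line themselves with cuticle or lie near the oviduct differed between arrays as well. Of 11 measured tracheal markers, 2 were present. Their summed intensity was between 810 and 828 in unmated and between 645 and 738 in mated females, without overlap. Among 5 markers of the spermatheca and parovaria 0 were present, with sums of 198 to 825 in unmated and 332 to 414 in mated females. One of them, yellow-g, was also listed as an ovary and eggshell marker. Of 9 fat body markers 6 were present, with sums of 15230 to 28507 in unmated and 9162 to 15952 in mated females. The yolk protein genes Yp1, Yp2 and Yp3 made up most of the highest sum, at 12586, 5895.9 and 8401.5 on unmated array 1. Among 10 markers of the male accessory gland 1, SP, was present, with sums of 173 to 297 in unmated and 156 to 249 in mated females. SP read 143.2, 113.3 and 114 in unmated and 98.8, 154.5 and 77.4 in mated females, at percentiles 54.5 to 67.2. Of the present members, Cpr47Ed, at percentiles 57.8 to 61.4, lay wholly within that range. On their lowest arrays TwdlQ (50.1), Ccp84Ad (51.0), Cpr72Eb (53.8) and Cpr64Ac (54.1) fell below it. On their highest arrays Ccp84Ad (74.4), Cpr72Eb (67.3) and Cpr64Ac (80.0) were above it, but TwdlQ (60.4) was not. Why SP passed the threshold was not tested. The share of these tissues in the differences of the cuticle protein genes was not tested.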

How the data were processed

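The deposited intensities, 1 for each probe set and array, are on a linear scale. Per the submitters' processing notes they were made with RMA, with no version given. They are neither on a log2 scale nor of equal quartiles between arrays, so which summary the authors used is unknown. No column of per-sample values was left unused (0). All 6 arrays were assigned to unmated or mated by their titles.

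Of 14010 probe sets, 44 Affymetrix controls were left out and 13966 tested. The platform annotation gave 12443 of these 1 gene, 327 several genes and 1196 none, and symbols of 12394 were updated through RefSeq (assembly Release 6 plus ISO1 MT), which served for names and neighbours alone. Of the 10844 genes each was represented by its brightest probe set.

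Intensities as deposited were taken to log2 without an offset and fitted with limma 3.58.1 in R 4.3.3 (lmFit and eBayes, two-sided, unmated against mated, no covariate), Benjamini-Hochberg adjusted over all 13966 probe sets, at an adjusted p of 0.05. The fit was tested on simulated data. The number of arrays, 3 a group, limits the precision. Alternatives were the normalization, an offset of 32, a filter on dim probe sets, the variance model, the replicate number as a block, an exact permutation test, averaging the probe sets of a gene, other thresholds of presence, leaving out each array, and leaving out unmated arrays 1 and 2 together. That last fit sets 1 unmated array against 3, takes its spread from the mated arrays and assumes that the lone array varies like them. Presence without those 2 arrays, non-overlap of groups without an array and the other probe sets of a gene were added after seeing the data.

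The members and the gene lists were chosen with earlier results of these data known. Members named in the text were the 15 brightest present members, the 10 brightest and the 10 with the smallest unadjusted p, those without overlap between groups, and resilin. In each other list up to 4 genes with the smallest p and up to 3 of the brightest were eligible. Pcp, Acp65Aa, Lcp65Ac, Lcp65Ad, Lcp65Af, TwdlO, TwdlQ, Ccp84Ad, Twdlbeta, Cpr47Ed, Cpr47Ee and Cpr67Fa2 fall outside this rule or were picked after their values were seen.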

Additional observations from a re-analysis of the deposited data

How the results depend on the processing

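No member passed an adjusted p of 0.05 under any of the alternatives run. The count of present members was 5 with percentile 75 of each array as the threshold, 12 with an intensity of at least 100, 24 where percentile 50 had to be passed in 1 group only and 18 to 20 without 1 array. The members' median log2 difference of -0.31 was -0.0269 after quantile normalization, -0.0473 after median centring and -0.0126 after cyclic loess. Relative to all genes, whose median was 0.11 after centring, the members' median was -0.16 in the main setting and after centring, -0.02 after quantile normalization and -0.01 after loess. Without 1 array the median itself was -0.44 to -0.18. Relative to all genes it was then -0.25 to -0.06, the latter without mated array 3. At an unadjusted p under 0.05, 7 members lower and 2 higher became 5 and 6 after quantile normalization, 4 and 6 after centring and 4 and 7 after loess. The lower count was 4 without mated array 3, 14 without unmated array 3 and 1 without unmated arrays 1 and 2, where 1 array stands against 3 and counts are not comparable with 3 against 3. Members without overlap, 16 lower and 2 higher, were 30 and 21 without those 2 arrays, against 22.3% and 22.8% of all genes in the same 1 against 3 comparison. The present members' median of -0.24 was 0.02 after centring, which moves all genes alike and leaves the gap to all present genes unchanged. The causes were not tested.

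Of 892 values of 57 single genes under alternatives, 50 reversed in sign, in 16 genes, 10 of them members. Without unmated arrays 1 and 2 these were Cpr67B at -0.39, Cpr64Ad at 0.10, Cpr92A at 0.053, Lcp65Aa at 0.27, TwdlD at 0.44, Cpr97Ea at 0.17, Cpr72Eb at 0.20, Edg84A at -0.12, Vajk2 at -0.0917, Vajk3 at 0.00261, Catsup at -0.34 and speck at -0.22. After median centring they were Cpr64Ad at 0.25, Cpr92A at 0.12, Lcp65Aa at 0.0900, TwdlD at 0.10, Cpr97Ea at 0.22, drd at 0.25 and Idgf3 at 0.24. After quantile normalization they were Cpr64Ad at 0.0119, Cpr97Ea at 0.10, Vajk2 at -0.13 and drd at 0.0448, and after cyclic loess Cpr64Ad at 0.00891, Cpr97Ea at 0.0707, Vajk2 at -0.0823 and drd at 0.0295. With probe sets of a gene averaged, Vajk2 was at -0.40. Without 1 array, values ranged from -0.0185 to 0.49 for Catsup, -0.0388 to 0.45 for Cpr64Ab, -0.0924 to 0.12 for Cpr64Ad, -0.57 to 0.0214 for Cpr72Eb, -0.29 to 0.0551 for Cpr92A, -0.17 to 0.14 for Cpr97Ea, -0.17 to 0.26 for Edg84A, -0.19 to 0.18 for Idgf3, -0.47 to 0.22 for TwdlD, -0.078 to 0.11 for Vajk2, -0.22 to 0.10 for drd and -0.0228 to 0.90 for resilin.

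With the replicate number as a block, 0 members were called, 8 were lower and 1 higher at an unadjusted p under 0.05, and the median was -0.31. The deviations of same-numbered arrays correlated at -0.18, 0.03 and -0.09, and those of different-numbered arrays at -0.16 to 0.25. With 3 arrays a group, these values cannot settle whether same-numbered arrays were paired.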
